A study of Mus musculus with 2 samples.

Results

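The cells described here are the barcodes of the mouse ventral prostate whose messenger RNA was dominated by Sbp and Spink1. Sbp encodes spermine-binding protein and Spink1 a Kazal-type inhibitor of serine proteases, and both are secreted into prostatic fluid. A barcode was a member if it had at least 500 genes, 0.5 to 10% of its UMIs (unique molecular identifiers, tags that let copies of the same RNA molecule be counted once) from mitochondrially encoded genes, more than 5% of its UMIs from Sbp and Spink1 together, and less than 1% from Msmb. This rule kept 1612 barcodes, 83.1% of the 1939 ventral barcodes within the gene and mitochondrial limits. The ventral library held 2221 barcodes and the 2 libraries of the series together held 6565.

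The mice were wild-type C57BL6 males. Prostate pieces were dissociated with papain and then TrypLE and profiled with 3' single-cell chemistry, with kit version 2 for the ventral prostate lobes and kit version 3 for the region labelled proximal and periurethral. The number and age of the animals and any pooling are not given in the sources used here. Each region had 1 library, so an effect of the region and one of the kit cannot be told apart, cells are not replicates of a condition, and no test or p-value is given anywhere below. The same rule kept 152 barcodes of the proximal library, whose values are set beside the ventral ones only as a second look at the same kind of cell.

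The rodent ventral lobe is one of several paired lobes that differ in the proteins they secrete. Its tall luminal cells make large amounts of a few secretory proteins under androgen control, pass them through the endoplasmic reticulum (ER) and Golgi, and release them into the duct lumen. Such cells carry a high load of nascent protein, which the chaperones and disulfide isomerases of the ER fold and which the unfolded protein response monitors. Prostatic secretion is also rich in zinc, citrate and polyamines, so the handling of metals, the citric acid cycle and polyamine synthesis are textbook features of the gland.

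The values the rule used are given as a description. Sbp and Spink1 made up a median of 47.8% of a member's UMIs, with 5.23% in the lowest cell, 33.3% at the 5th percentile, 56.2% at the 95th and 64.3% in the highest. Sbp alone was 23.2% of the UMIs of the median cell and Spink1 24.2%. The balance of the pair varied from cell to cell: Sbp was 48.5% of their sum in the median cell, 25.5% at the 5th percentile and 65.1% at the 95th. Few cells lay near the threshold. The members just inside it had 5.23, 6.36 and 6.44%, and the barcodes just outside had 4.52, 3.70 and 3.58%. Only 9 members had 5 to 10%, while 1359 had more than 40%.

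Members had a median of 27418 UMIs (10859 at the 5th percentile, 44597 at the 95th), 3459 genes and 2.38% mitochondrial UMIs, and they held 44399403 of the 49356586 UMIs of the ventral library. The 327 other ventral barcodes within the limits served as the reference. By their markers they were 113 basal-like, 89 rich in Msmb (at least 1% of UMIs), 51 proximal luminal-like, 28 macrophage-like, 11 T or NK cell-like and 5 fibroblast-like barcodes, and 30 had no class. Msmb encodes beta-microseminoprotein, and the 89 Msmb-rich barcodes, with a median of 24295 UMIs, gave 58.2% of the reference's UMIs outside Sbp and Spink1. Ratios were therefore computed against all other barcodes and also against the Msmb-rich ones alone. Basal-like barcodes had a median of only 5049 UMIs. Sbp and Spink1 still made up a median of 1.35% of their UMIs, and 1.34% in macrophage-like barcodes, and 43 of the 89 Msmb-rich barcodes had more than 5%.

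General luminal markers were present in members, while probasin was lower than in Msmb-rich barcodes. In UMIs per 1000000 UMIs outside Sbp and Spink1 (CPM, the scale of all levels below, with no correction for length since only 3' ends are counted), the luminal keratin Krt18 was at 1286 in members and 1000 in the others, Krt8 at 692 and 583, and the adhesion protein Epcam at 451 and 381. Hoxb13, a homeobox factor of the posterior body and prostate, was at 899 in members and 366 in the others, a log2 ratio of 1.28. Probasin (Pbsn), an androgen-regulated secretory protein, was at 28.7 CPM in members and 7008 in the Msmb-rich barcodes.

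Most defining markers of other cell types were under 10 CPM in members. The basal keratins Krt5 and Krt14 were at 1.97 and 1.16 CPM, the macrophage genes C1qa and Csf1r at 2.27 and 0.171, and Ptprc, Cd8a, Col1a1, Pdgfra, Cdh5, Kdr and all 5 seminal vesicle genes searched had no UMI in any member. Clu, Dcn, Dst, Pecam1 and Krt15, which other classes are known for, were exceptions at 137, 82.8, 44.8, 22.2 and 12.5 CPM, and Msmb, which the rule limited, was at 180.0 CPM. At least 2 UMIs each of 2 markers of another type were found in 57 members (3.54%), of which 41 carried proximal luminal markers and 11 basal ones. Doublets were not called or removed.

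The third gene given as a marker of these cells went against that label. Defb50, a beta-defensin, is a small secreted antimicrobial peptide. It was at 5685 CPM in members and 156383 CPM in the Msmb-rich barcodes, a log2 ratio of -4.78. Defb50 was a median of 0.224% of a member's UMIs outside Sbp and Spink1 (0.0462% at the 5th percentile, 1.60% at the 95th) and a median of 15.3% in Msmb-rich barcodes (8.23% to 21.5%). The 2 ranges hardly met, since 7 members exceeded the 5th percentile of the Msmb-rich barcodes. The pooled Defb50 level of members was nevertheless well above the basal-like and macrophage-like barcodes (470 and 353 CPM). Against a reference without Msmb-rich barcodes its log2 ratio turned to 3.66. Members at the 5th percentile were close to the pooled basal-like level, however, and how much of their Defb50 is free RNA was not tested. Because the rule kept Msmb-rich barcodes out, the members are called Sbp/Spink1-rich luminal cells below.

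**Figure D1:**
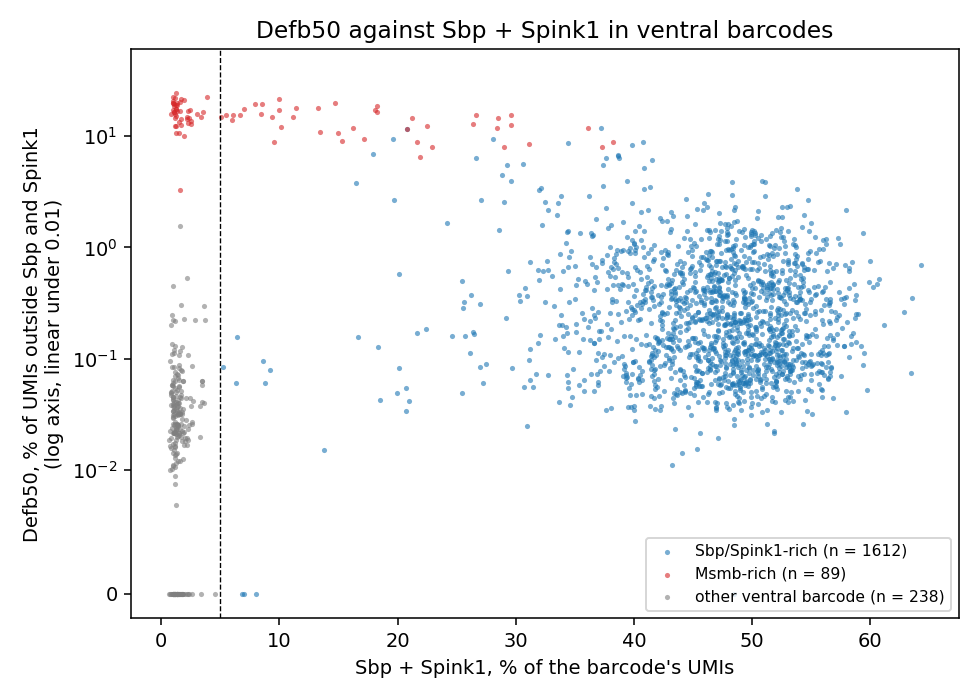
Each point is 1 ventral barcode, with the share of its UMIs from Sbp and Spink1 (horizontal, percent) and the share of its other UMIs from Defb50 (vertical, percent, log axis that is linear under 0.01), and the dashed line marks the 5% threshold. The 1612 Sbp/Spink1-rich cells form a cloud around 47.8% with a median Defb50 of 0.224%, and the 89 Msmb-rich barcodes form a band around 15.3% Defb50.

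Levels across all genes were compared as the ratio of CPM with a pseudocount of 10 CPM, among genes with at least 50 UMIs over both sides. At least 2-fold higher levels in members were found for 203 of 11429 genes (1.78%) against the other barcodes, and at least 2-fold lower levels for 428 (3.74%). Against the Msmb-rich barcodes alone, 316 of 11033 genes (2.86%) were higher and 84 (0.761%) lower. These counts come from the contrast that chose the cells, and nothing is read from them beyond their size. The median log2 ratio of all genes was 0.10 against the others and 0.26 against the Msmb-rich barcodes, and the counts and medians of lists below are to be read against these shares and medians. Dividing by all UMIs, Sbp and Spink1 included, moved the median to -0.32 and the share of called genes that were higher from 32.2% to 5.83%.

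After Sbp and Spink1, the most abundant transcript was 9530002B09Rik, at 48317 CPM and a median of 2.46% of a cell's UMIs. It stood at 15501 CPM in the other barcodes, 24903 in the Msmb-rich ones and 804 in basal-like ones. It lies on chromosome 4 at 122689275 to 122705129 (plus strand, GRCm38, the assembly also called mm10). Its relation to Sbp and Spink1 from cell to cell is given further below.

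Among other secretory products, Pigr, Spink5 and Sbpl were higher in members than in the pooled others, and defensins and probasin were lower than in a reference that included the Msmb-rich barcodes. Pigr, the receptor that carries polymeric immunoglobulins across epithelia, was at 1047 CPM in members, 202 in the others and 58.0 in Msmb-rich barcodes. Spink5, a multidomain Kazal-type protease inhibitor, was at 1662, 430 and 11.6 CPM. The proximal luminal-like barcodes alone had 804 CPM of Pigr and 1817 of Spink5, the latter above the members. Sbpl, a close copy of Sbp that neighbours it on chromosome 17, was at 81.3 and 5.91 CPM in members and others. How reads are divided between Sbp and Sbpl is uncertain. In the opposite direction, the log2 ratios to the others were -7.19 for Msmb, which the rule used, -6.72 for Pbsn and -5.96 for the beta-defensin Defb1. Against a reference without Msmb-rich barcodes the ratio turned to 0.93 for Msmb and 0.81 for Pbsn. The whey acidic protein family member Wfdc3 was at 1976 CPM against 7374 in Msmb-rich barcodes, yet at only 53.9 in basal-like ones. Of 22 secretory genes listed beyond Sbp and Spink1, 13 could be compared. Against the others 3 were higher and 7 lower (1.78% and 3.74% of all genes), and the lower ones include Msmb, which the rule used. Against Msmb-rich barcodes 4 were higher and 5 lower (2.86% and 0.761% of all genes), with a median log2 ratio of 0.07.

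The 10 genes with the highest ratios outside the rule were led by Crabp1, which encodes a cytosolic retinoic acid-binding protein. Its level was 510 CPM in members and 23.9 in the others, a 21.3-fold ratio with a 95% interval of 17.2 to 26.7 for counting error only. Csta1, a stefin-type cysteine protease inhibitor, was at 306 against 17.4 CPM. Hdac9, a class IIa histone deacetylase, was at 825 against 70.9 CPM and only 19.3 in Msmb-rich barcodes. Nupr1, a small stress-induced chromatin protein, reached 3144 CPM against 339. Trpv6, an epithelial calcium channel, was at 148 against 8.72 CPM, and Mat2a, which makes S-adenosylmethionine from methionine, at 935 against 136. C2cd4a, Asrgl1, Spin2e and Col6a3 completed the group with log2 ratios of 3.09, 2.98, 2.92 and 2.78. All 10 were also at least 2-fold higher than in the Msmb-rich barcodes, with log2 ratios from 2.80 (Asrgl1) to 4.83 (Hdac9).

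The lowest ratios fell into 2 sets that the Msmb-rich reference separates. Pbsn, Defb1 and Rnase1 were lower against both references, with log2 ratios of -7.50, -6.72 and -5.20 to the Msmb-rich barcodes. Apoe, Cd74, Wfdc2, Krt15, H2-Aa and H2-Ab1 had log2 ratios of -5.94 to -4.25 against all others. Against Msmb-rich barcodes the ratios were 0.60, 0.71, 0.26, 0.47 and 0.27 for Apoe, Cd74, Wfdc2, Krt15 and H2-Ab1, while H2-Aa had too few UMIs to be compared. Krt15, a basal keratin, was at 12.5 CPM in members and 3092 in basal-like barcodes, and Cd74, H2-Aa and H2-Ab1 serve antigen presentation on class II molecules.

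Across the lists of ER translocation, ER to Golgi transport, N-glycosylation and ER folding, Pdia6 was the only gene that differed 2-fold between members and Msmb-rich barcodes. Of 23 ER translocation genes none differed 2-fold from the others. Their median log2 ratio was 0.50 against all others and 0.10 against Msmb-rich barcodes, where all genes had 0.26. Sec61g and Sec61b, subunits of the translocon, were at 1975 and 1567 CPM, and Ssr4, a translocon-associated protein, at 1963. The 31 genes of ER to Golgi transport had medians of 0.50 and 0.26, and 16 of N-glycosylation 0.29 and 0.06. The 25 ER folding genes had a median of 0.19 against the others but -0.29 against Msmb-rich barcodes. In that list the disulfide isomerase Pdia6 was lower than in Msmb-rich barcodes (666 against 1368 CPM, log2 ratio -1.03), the chaperone calreticulin (Calr) was at 1071 against 1871, and the chaperone Hspa5 at 1909 against 2085. Of 23 unfolded protein response genes Nupr1 was higher than in the others and no other passed 2-fold there. Derl3, an ER degradation factor, was at 103 CPM against 302 in Msmb-rich barcodes.

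Stress and interferon lists depended on the reference. Heat shock genes had a median log2 ratio of 0.10 against all others and 0.54 against Msmb-rich barcodes, led by the cytosolic chaperone Hsp90aa1 (1705 CPM against 593 in Msmb-rich barcodes). Immediate early genes had -0.29 and 0.50. In that list Fos was at 932 CPM in members, 1638 in the others and 751 in Msmb-rich barcodes. The signalling inhibitor Socs3 was lower than in the others (5.31 against 31.5 CPM), with 101 CPM in basal-like barcodes. Among 23 interferon and chemokine genes, 3 were higher and 4 lower than in the others (1.78% and 3.74% of all genes), with a median of 0.06. Against Msmb-rich barcodes 5 of 21 were higher and none lower (2.86% and 0.761% of all genes), with a median of 0.78. Ifi27, Ifit1 and Rsad2 were higher (158, 24.7 and 27.4 CPM against 52.0, 2.25 and 3.09). The chemokine Cxcl17 and the adhesion molecule Icam1 were among the lower, with log2 ratios of -2.77 and -1.79. B2m, the light chain of class I antigen-presenting molecules, was at 1029.7 CPM against 2967 in Msmb-rich barcodes.

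Metabolic lists differed in how many of their genes passed 2-fold against the others, where 1.78% of all genes were higher and 3.74% lower. In metallothionein and zinc transport none of 17 genes was higher and 3 were lower, with a median of 0.48 against the others and 0.34 against Msmb-rich barcodes, and among 27 antioxidant genes none was higher and 4 were lower. Against Msmb-rich barcodes, where 0.761% of all genes were lower, 1 of 16 and 1 of 27 were, and the antioxidant median turned from -0.10 to 0.36. The metallothioneins Mt1 and Mt2, cysteine-rich proteins that bind zinc and copper, were at 7490 and 4620 CPM against 3936 and 2408 in the others, below the 2-fold limit. In the polyamine and methionine list, 4 of 28 genes were higher and none lower, the higher ones including Mat2a and Adi1, an enzyme of methionine salvage (244 against 76.5 CPM). Odc1 and Amd1, which make putrescine and decarboxylated S-adenosylmethionine, had log2 ratios of 0.75 and 0.85. None of 33 citrate and citric acid cycle genes, 13 mitochondrially encoded genes or 71 nuclear genes of oxidative phosphorylation passed 2-fold, with medians of 0.16, 0.56 and 0.27 against the others. Sterol and fatty acid synthesis had a median of 0.59 with 3 of 30 genes higher and none lower, and Fdft1 (squalene synthase) and Msmo1 were higher by 1.46 and 1.17 on the log2 scale. Of 16 ion and fluid transport genes, 3 were higher and 4 lower, and 4 and 1 against Msmb-rich barcodes. Slc26a4, an anion exchanger, was at 157 against 24.5 CPM, and Slc4a4, a sodium bicarbonate cotransporter, at 43.3 against 9.85. The water channel Aqp5 was lower (14.3 against 86.4 CPM), as was the glutathione transferase Gsto1 (38.3 against 256). Glycolysis genes had a median of 0.07 against the others and 0.60 against Msmb-rich barcodes, where Gapdh was at 486 against 252 CPM and Aldoa at 259 against 127. Cell cycle genes were low, with the proliferation genes Pcna at 42.7 CPM and Top2a at 13.8 in members. Ribosomal protein genes, 88 in all, had a median of 0.00.

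**Figure D2:**
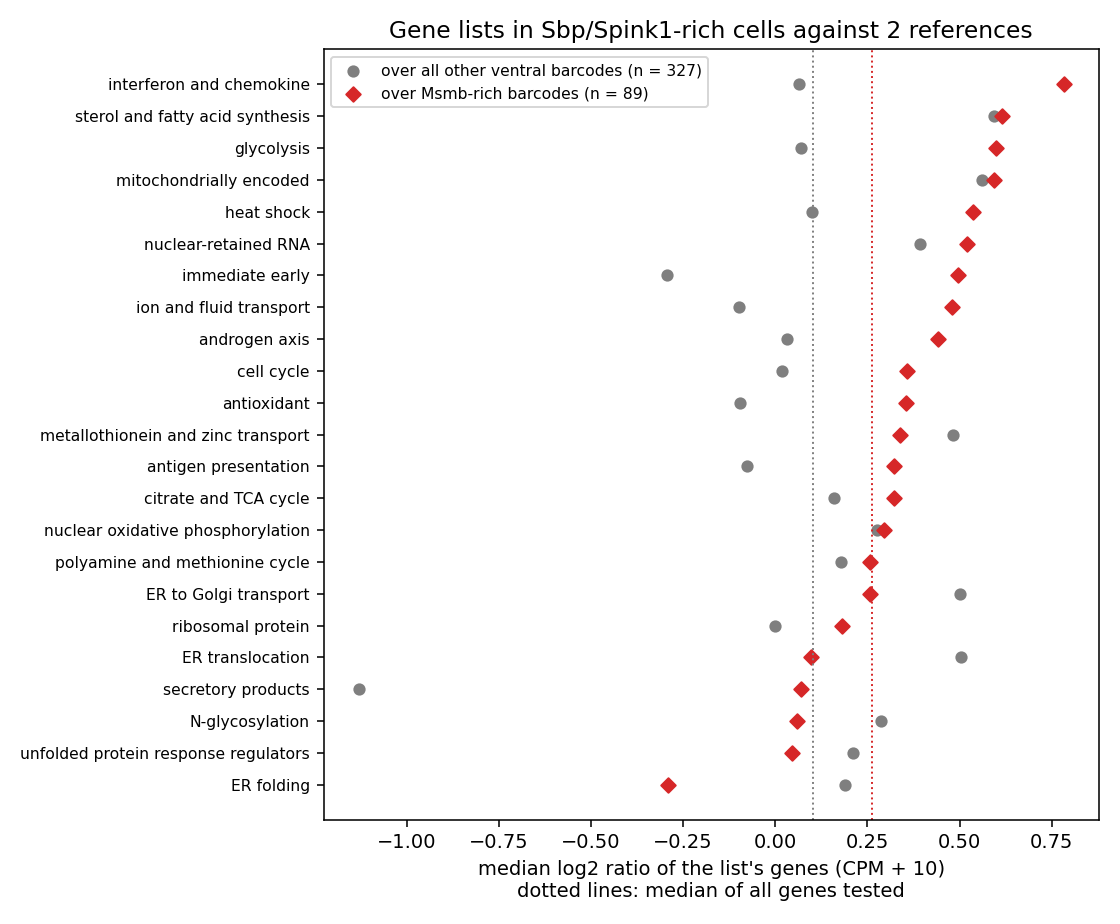
Each row is a gene list, and the points give the median log2 ratio of its genes in Sbp/Spink1-rich cells over all 327 other ventral barcodes (circles) and over the 89 Msmb-rich barcodes (diamonds), with dotted lines at the medians of all genes tested (0.10 and 0.26). ER folding lies at 0.19 and -0.29 and immediate early genes at -0.29 and 0.50, so the 2 references give different signs for them.

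To compare cells with each other, each was thinned to 5000 UMIs outside Sbp and Spink1 by random draws without replacement, which kept 1556 members and left out 56 shallower ones. In the proximal library 122 of 152 cells remained. Variation is given as the Fano factor, the variance divided by the mean, which is 1 for counting noise alone. A factor of at least 1.5 was found for 357 of 4906 genes (7.28%) with a mean of at least 0.1. Only 1142 of these had a mean of at least 0.5, and at lower means a factor of 1.5 needs a larger spread relative to the mean. Without the highest cell of each gene, 259 genes were past the limit. Of the 357 genes, 54.6% were also past it in the proximal library, as were 4.35% of the genes that were not among them.

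Defb50 had the highest factor, 90.3. Cells had a median of 11 UMIs per 5000, 2 at the 5th percentile, 82 at the 95th and 583 in the highest. The factor was 51.5 for Spink5, 32.6 for Malat1, 25.9 for Mt1 and 23.7 for Wfdc3. The nuclear RNA Malat1 had a median of 90 per 5000 and Mt1 one of 27, with 5 to 97 between the 5th and 95th percentiles. The factors of these genes in the proximal library were 93.7 for Defb50, 63.3 for Spink5, 20.4 for Malat1, 15.3 for Mt1 and 23.3 for Wfdc3. A few high factors came from very few cells: for Ccl5, a T cell chemokine with a factor of 69.1, a single cell held at least as many UMIs as all the rest.

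**Figure D3:**
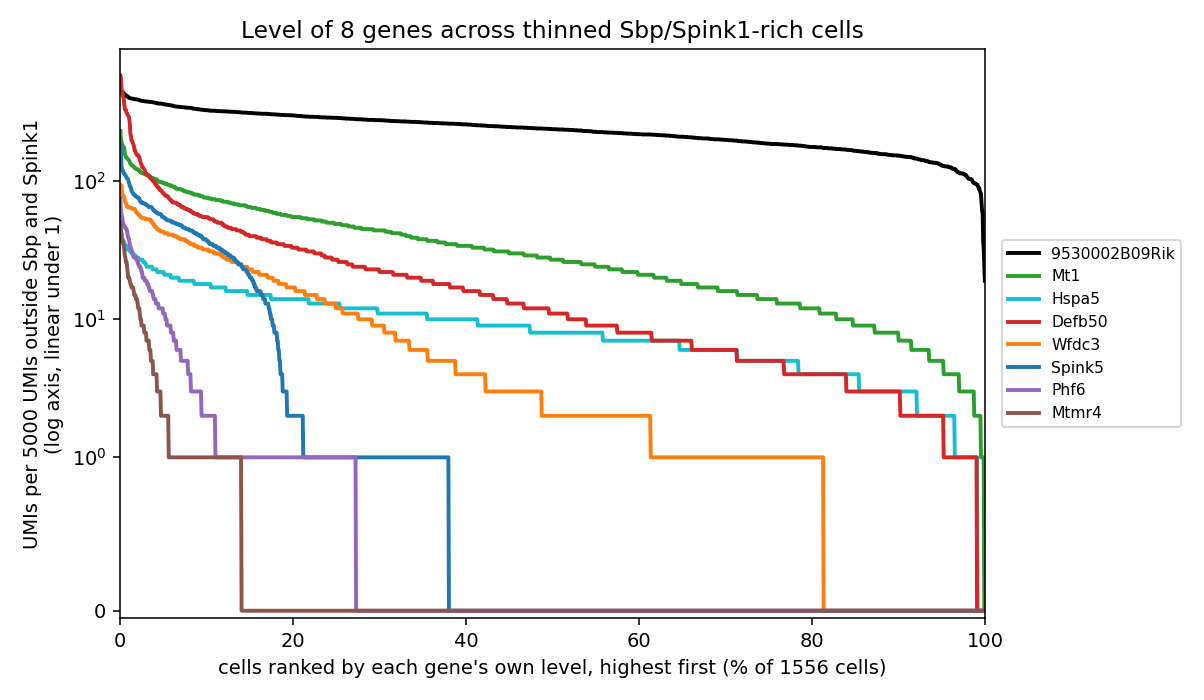
For 8 genes, the 1556 thinned Sbp/Spink1-rich cells are ranked by that gene's own level (horizontal, percent of cells) against UMIs per 5000 (vertical, log axis that is linear under 1). The curve of 9530002B09Rik is shallow around its median of 238, Defb50 and Mt1 fall steadily over all cells, and Spink5, Phf6 and Mtmr4 reach 10 or more in only 17.6, 5.40 and 2.44% of cells.

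Few genes followed the secretory output of a cell, taken as its share of Sbp and Spink1 UMIs. Of 1254 genes with a mean of at least 0.5 thinned UMIs, 9530002B09Rik alone had a Spearman rho of 0.3 or more in size with the share of Sbp and Spink1 (0.67, and 0.74 over 122 proximal cells). The next highest was Ssr4 at 0.28 and the lowest was Ftl1, the ferritin light chain, at -0.22. None of 23 gene lists reached 0.3 in size in the ventral cells. Over the proximal cells 5 lists did, with -0.45 for ion and fluid transport, 0.40 for ER translocation, 0.40 for nuclear oxidative phosphorylation, 0.36 for ribosomal proteins and -0.33 for secretory products. Such correlations are descriptions over cells of 1 library, and they share the thinned total. Total UMIs moved with the secretory share (0.36), and so did the mitochondrial share of all UMIs (-0.32), whose denominator includes Sbp and Spink1. The mitochondrially encoded list outside Sbp and Spink1 had 0.16.

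Sbp, Spink1 and 9530002B09Rik did not vary in fixed proportion. Per UMI outside all 3 genes, Sbp and Spink1 had a rho of 0.22 with each other, while each had a higher one with 9530002B09Rik (0.57 and 0.55). In the proximal library these were 0.57, 0.66 and 0.74. The values of a cell share the same denominator. The coefficients of variation were 0.356 for Sbp, 0.338 for Spink1 and 0.303 for 9530002B09Rik, where counting alone would give 0.0158, 0.0139 and 0.0423.

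Defb50 went with a small group of other genes with little difference in the Sbp and Spink1 share. Across the 1556 cells its rho was 0.35 with Gpx3, the secreted plasma glutathione peroxidase, 0.32 with Wfdc3 and 0.30 with Nrg1, the ERBB receptor ligand neuregulin. With Pigr it was -0.32. Wfdc3 and Gpx3 had 0.35 with each other. Proximal values were 0.21, 0.34, 0.22, -0.12 and 0.41, so only Wfdc3 with Defb50 and with Gpx3 reached 0.3 there.

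Sorted into 5 groups of 311 or 312 cells by Defb50, the lowest had a median of 3 UMIs per 5000 and the highest 55. Mean Wfdc3 went from 4.50 in the lowest group to 18.0 in the highest and Gpx3 from 1.39 to 6.43. Pigr went from 7.61 to 2.84, Nupr1 from 20.6 to 11.6 and Spink5 from 11.2 to 3.86. The median Sbp and Spink1 share was 48.1% in the lowest group and 47.0% in the highest, and median total UMIs were 26547 and 28990. Malat1 went from a median of 105.5 to 76 and the unfolded protein response list, which holds Nupr1, from 29 to 18, while ER folding was at 50 and 54. Mean Msmb was 0.631 in the lowest group and 1.57 in the highest. Defb50 and Msmb had a rho of 0.0078, which says little because the rule limited Msmb and 859 cells had no thinned Msmb UMI. Whether RNA from Msmb-rich barcodes adds to the spread of Defb50 was not tested. In the 1338 cells with at most 1 thinned Msmb UMI, Defb50 ran from 2 to 76.3 between the 5th and 95th percentiles and had a rho of 0.33 with Gpx3, 0.30 with Wfdc3 and -0.30 with Pigr.

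**Figure D4:**
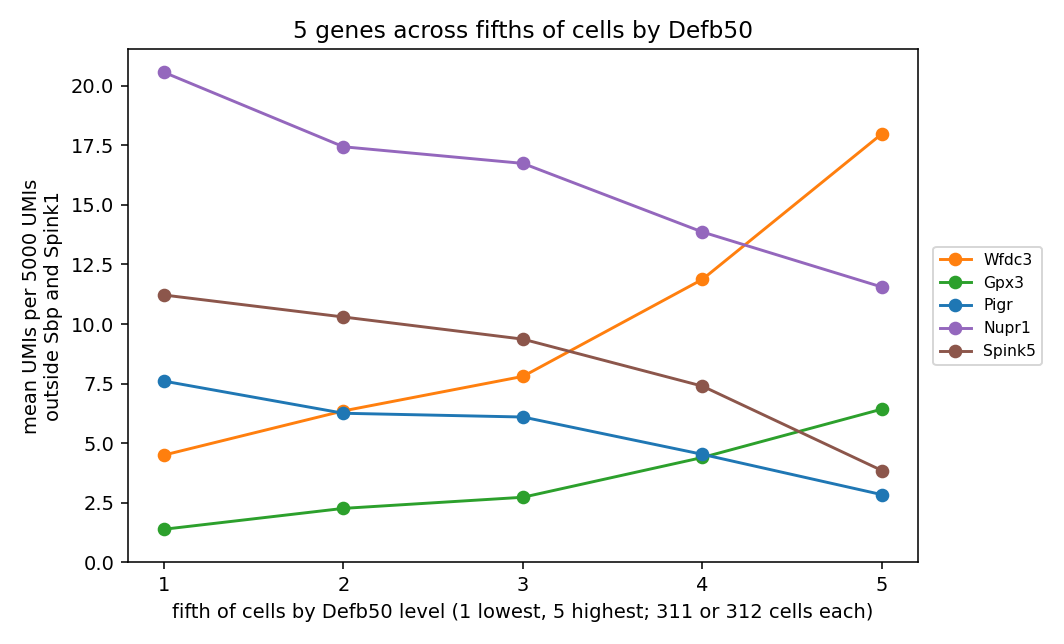
The 1556 thinned Sbp/Spink1-rich cells are sorted into 5 groups by their Defb50 level (horizontal, lowest to highest), and points give the mean UMIs per 5000 of 5 genes in each group (vertical). Wfdc3 goes from 4.50 to 18.0 and Gpx3 from 1.39 to 6.43, while Pigr, Nupr1 and Spink5 are lower in the highest group than in the lowest.

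Beyond the secretory genes, 9 of 253 pairs of gene lists had a rho of 0.3 or more in size, and 6 of those also did in the proximal library with the same sign. They formed an ER group, a group of heat shock and immediate early genes, and pairs of opposite sign that involve oxidative phosphorylation and ribosomal protein genes.

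In the ER group, the folding list had a rho of 0.44 with translocation, 0.40 with ER to Golgi transport, 0.37 with N-glycosylation and 0.31 with unfolded protein response genes. In the proximal library these were 0.28, 0.33, 0.34 and 0.26, so the first and last fell under 0.3 there. Single genes of these lists also went together. Hspa5, the main ER chaperone, had a rho of 0.52 with Herpud1, a factor of ER-associated degradation, 0.49 with the secreted stress factor Manf and 0.47 with the chaperone Hsp90b1. The proximal values were 0.46, 0.33 and 0.50. Sorted by the folding list, the lowest group of cells had a median of 32 UMIs per 5000 from these genes and the highest 86, and translocation went from 52 to 67 and unfolded protein response genes from 18.5 to 33. The Sbp and Spink1 share was 47.7% in the lowest group and 48.3% in the highest, and total UMIs were 25989 and 28697. A higher level of the folding machinery therefore went with only a small difference in the share of the 2 main products.

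The heat shock and immediate early lists had a rho of 0.47, and 0.41 in the proximal library. Atf3, a stress-induced transcription factor, had 0.56 with Btg2, 0.50 with Fos and 0.50 with Jun. Hspa1a, an inducible cytosolic chaperone, had 0.44 with Hsp90aa1 and 0.44 with Hspb1, and 0.28 and 0.26 in the proximal library. Sorted by immediate early genes, the lowest group had a median of 15 UMIs per 5000 from them and the highest 82. Heat shock genes went from 28 to 58, the Notch target Hes1 from 2 to 11 and Hspa5 from 5 to 11. Mitochondrially encoded genes went from 258.5 to 211 and nuclear oxidative phosphorylation genes from 166 to 150. The immediate early list had a rho of -0.32 with nuclear oxidative phosphorylation genes (-0.28 in the proximal library). The other pair of opposite sign was nuclear-retained RNA and ribosomal protein genes (-0.31, and -0.42 in the proximal library). Total UMIs by immediate early level were 27285 and 27998 and the secretory share 48.7 and 46.5% in the lowest and highest group.

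Hspa1a also had a rho of 0.45 with Hspa1b, its neighbouring copy. How reads are divided between the copies is uncertain. Their upstream sequences are shown because they too are nearly alike. Over the 250 bases before their RefSeq starts (GRCm38.p6, minus strand, chr17:34972157-34972406 for Hspa1a and chr17:34959239-34959488 for Hspa1b) 247 bases (98.8%) were identical, and capitals mark the 3 that differ:
Hspa1a: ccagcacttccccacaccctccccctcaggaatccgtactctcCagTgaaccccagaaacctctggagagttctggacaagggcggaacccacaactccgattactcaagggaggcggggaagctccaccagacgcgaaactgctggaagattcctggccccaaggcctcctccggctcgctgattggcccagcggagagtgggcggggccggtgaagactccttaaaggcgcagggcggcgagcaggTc
Hspa1b: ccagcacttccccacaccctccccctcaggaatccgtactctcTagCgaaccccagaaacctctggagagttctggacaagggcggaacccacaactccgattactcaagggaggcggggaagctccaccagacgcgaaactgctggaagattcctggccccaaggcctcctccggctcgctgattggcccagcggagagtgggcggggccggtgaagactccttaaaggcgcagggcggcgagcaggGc

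Metallothioneins varied on their own. Mt1 and Mt2 had a rho of 0.85 (0.68 in the proximal library), the highest of the 30 gene pairs computed, and their list had no rho of 0.3 or more in size with any other list. The list summed to a median of 47 UMIs per 5000, with 10 at the 5th percentile and 154 at the 95th. The upstream sequence of Mt1 is shown because this pair moved together most closely. The metal response element core, TGCACNC or TGCGCNC on either strand, occurred once, 23 bases before the start, in the window of Mt1 (GRCm38.p6, plus strand, chr8:94178839-94179081, with 7 annotated exon bases left out), in capitals:
Mt1: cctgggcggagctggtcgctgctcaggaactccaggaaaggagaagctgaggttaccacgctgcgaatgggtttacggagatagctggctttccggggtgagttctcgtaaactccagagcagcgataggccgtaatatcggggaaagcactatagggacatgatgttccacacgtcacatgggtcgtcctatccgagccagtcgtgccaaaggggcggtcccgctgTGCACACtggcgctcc
At least 1 such core was found in 21.4% of 32851 RefSeq windows of 250 bases before a start. Bases after a start were not searched, so the counts hold for these windows alone. The window of Mt2 held 3, as 1.26% of windows did with 3 or more, and is not printed because all 250 of its bases are annotated as exon. The heat shock element was searched for on both strands in only 1 exact form, with fixed spacing and no mismatch allowed. This form had no match in the windows of Hspa1a and Hspa1b, where 0.466% of windows held it. The ER stress response element was also searched for in only 1 exact form. This form had 1 match in the window of Hspa5 and none in that of Herpud1, where 0.113% of windows held it. In the Hspa5 window 120 bases are annotated as exon, and the other 130 bases alone held no match. Other forms of these elements, with a changed letter or spacing, were not searched for. A match describes letters and shows no binding. The lack of one says only that the exact form searched is not in the window, and does not show that the promoter has no such element.

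**Figure D5:**
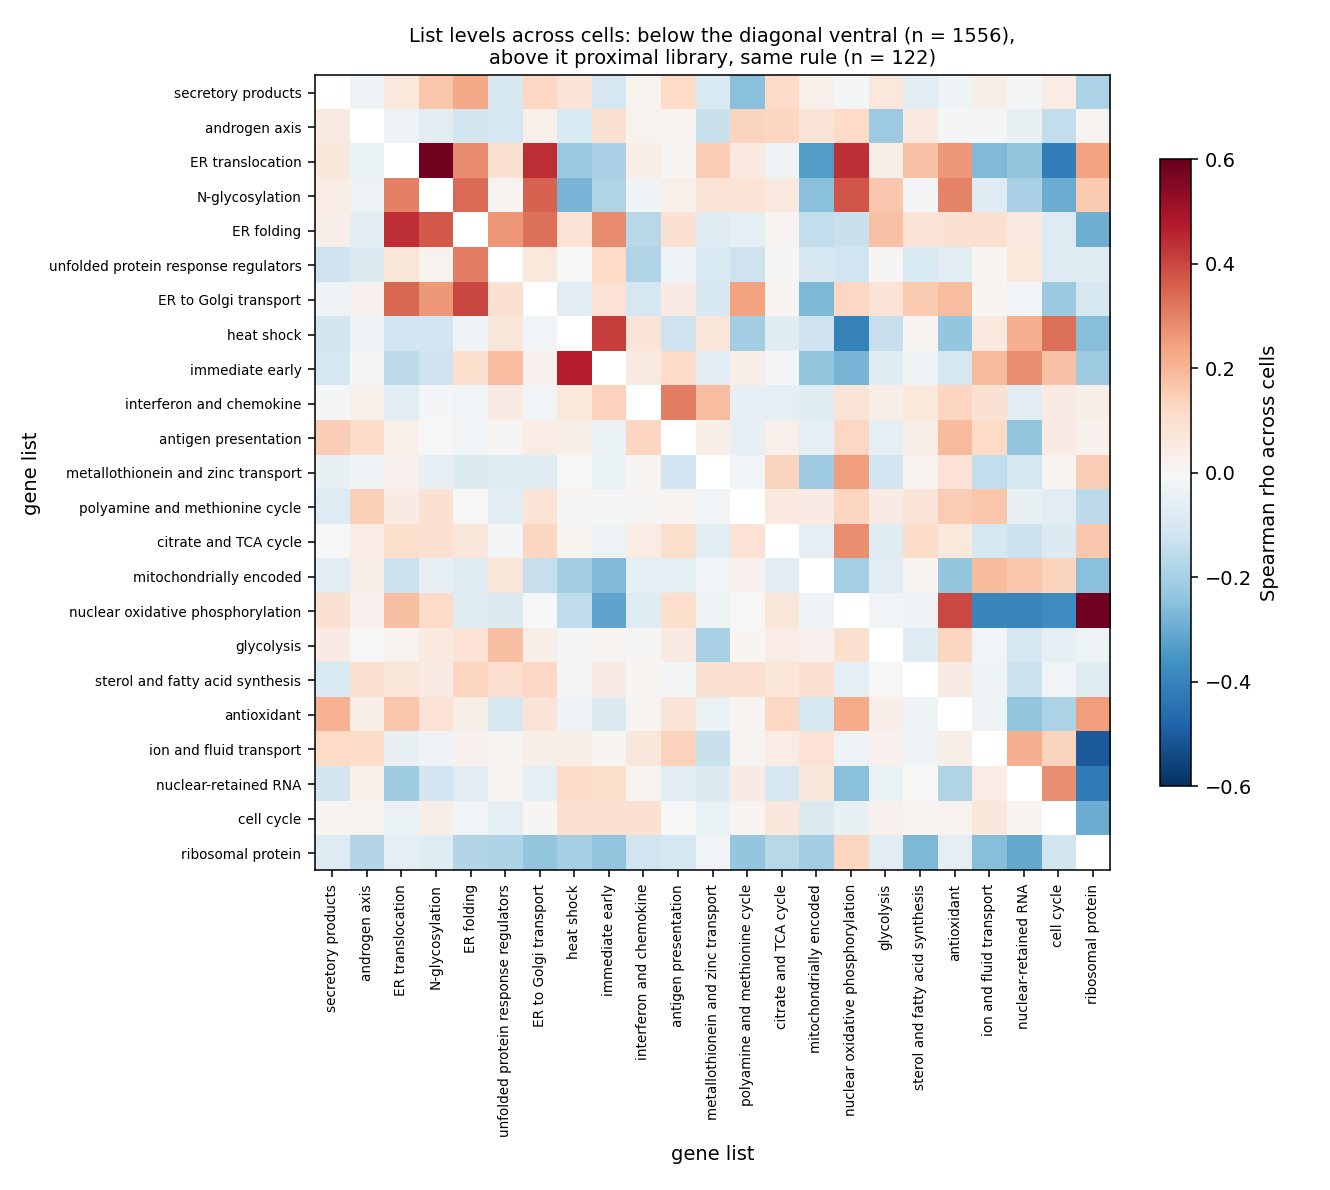
Each square gives the Spearman rho of 2 gene lists across thinned cells (colour scale from -0.6 to 0.6), below the diagonal for 1556 ventral Sbp/Spink1-rich cells and above it for 122 proximal cells chosen by the same rule. The ER lists (up to 0.44 below the diagonal) and the pair of heat shock and immediate early genes (0.47) are positive on both sides. ER folding with translocation and with unfolded protein response genes is at only 0.28 and 0.26 above the diagonal.

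Some genes were at or near 0 in most members and abundant in a few. By a rule set after values were seen, 32 genes had at least 10 thinned UMIs in at least 5 cells while the 75th percentile was at most 1. Of the 1556 cells, 579 (37.2%) were high for at least 1 of them, 463 for 1 and 116 for more. Without Spink5 the count was 361 cells. The 32 genes include Msmb, which the rule limited (11 high cells), and Apoe (6 high cells), which was at 10 or more in all 55 basal-like barcodes thinned to the same total.

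Spink5 was the most frequent. It had at least 10 UMIs in 274 cells, with a median of 42 there, none in 965 and 1 to 9 in 317, and the high cells held 96.5% of its UMIs. A UMI was found in 38.0% of members against 9.09% of basal-like and 6.82% of Msmb-rich barcodes thinned to the same total, where the highest count was 1. Of 49 proximal luminal-like barcodes 59.2% had a UMI, more than among members, and 14 were high. In the proximal library 30.3% of Sbp/Spink1-rich cells were high. The Spink5-high cells had a Sbp and Spink1 share of 47.0% and 27418 total UMIs, close to 48.0% and 27821 in the rest, and a median Defb50 of 7.5 against 12.

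Phf6, a chromatin-associated zinc finger protein, was high in 84 cells, which held 76.9% of its UMIs. Of those 84 cells 15 were also high for Spink5, close to the 17.6% of all thinned members that were. Mrnip was high in 55 cells, the phosphatase Mtmr4 in 38, Vwa8 in 28, and the kinase Cdk12 in 24. Of the 32 genes, 12 had a high cell in the proximal library, these 5 among them with 7, 7, 2, 2 and 1 of 122. Kif2a and Morc3 were high in 18 and 16 ventral cells (1.16 and 1.03%) and in no proximal cell. At such shares few high cells would be found among 122. Ccnb1ip1 went the other way, with 7 high ventral cells (0.450%) and 30 of 122 proximal ones (24.6%). Medians of total UMIs in the high cells of Phf6, Mrnip, Mtmr4, Vwa8 and Cdk12 ran from 27205 to 29734 and their Sbp and Spink1 share from 47.5 to 49.4%, against 27649 to 27716 UMIs and 47.8% in the cells that were not high.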

How the data were processed

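The deposited values are unnormalized UMI counts for each gene in each barcode, which the authors made with Cell Ranger 7.0.0 per the file headers, and the submitters' processing notes name the genome build mm10. The annotation is not given in the sources used here. Kit versions are per the labels' protocols. Ventral depth was 49356586 UMIs over 2221 barcodes, and no barcode was shared with the proximal library. The members, gene lists and comparisons were chosen with earlier results of these data known.

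Counts were summed over cells and divided by UMIs outside Sbp and Spink1. Ratios used a pseudocount of 10 CPM and at least 50 UMIs over both sides, and a gene counted as higher or lower at 2-fold. Intervals are exact at 95% and cover counting error only. A reference barcode was named by at least 3 detected markers of a class. Cells were thinned to 5000 UMIs (seed 0), and correlations are Spearman's rho, described from 0.3. The steps were tested on simulated data. Named genes were the 20 highest levels, the 10 highest and 10 lowest ratios, the 10 highest Fano factors, the 5 highest and 5 lowest correlations with the Sbp and Spink1 share, and in each list up to 4 by level and 2 by ratio in each direction. Rankings left out Rik, Gm-number, mitochondrial, ribosomal, immunoglobulin and T cell receptor genes. Members of marker lists, gene pairs beyond these, Gpx3, Nrg1, Hes1 and the genes high in few cells were chosen after their values were seen. Promoters are RefSeq GRCm38.p6 windows and gene positions GENCODE release 21 for mouse. Alternatives changed cell limits, thresholds, reference, scaling, pseudocount, thinning and seed. Computation used Python 3.11.15, numpy 2.4.6, scipy 1.17.1, pandas 2.3.3 and matplotlib 3.10.9.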

Additional observations from a re-analysis of the deposited data

How the results depend on the processing

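Over all settings of the cell limits and thresholds the rule kept 1504 to 1665 cells, with a median Sbp and Spink1 share of 47.7 to 48.0%. The 203 higher genes became 48 with CPM of all UMIs, 415 with the mean of each cell's CPM, 590 with a reference without Msmb-rich barcodes and 752 with a pseudocount of 1 CPM. The 428 lower genes became 775, 672, 922 and 814 under the same settings, and 226 with at least 200 summed UMIs. With the Msmb-rich barcodes alone as reference, an alternative added after seeing the data, 316 were higher and 84 lower. Of 767 recomputed log2 ratios of 52 named genes past 2-fold, 752 kept their direction and 731 were also still past 2-fold. Without Msmb-rich barcodes in the reference the ratio turned to 3.66 for Defb50, 0.93 for Msmb, 0.81 for Pbsn, 4.00 for Wfdc3 and 0.11 for B2m. Against Msmb-rich barcodes alone it turned to 0.60 for Apoe, 0.71 for Cd74, 0.26 for Wfdc2, 0.47 for Krt15, 0.27 for H2-Ab1, 0.045 for Ier5, 0.25 for Socs3, 0.089 for Gpx2, 0.69 for Kcnn4 and 0.12 for Tuba1b. H2-Aa had under 50 UMIs over both sides of that comparison and was not recomputed. Which barcodes make up the reference differs by construction in these settings. Thinning to 2000 UMIs gave 98 varying genes in place of 357 and 2 list pairs in place of 9, with fewer counts in each cell. Of the gene and list correlations of 0.3 or more in size, 32 were recomputed, leaving out the list pair of ER translocation and N-glycosylation (0.30). They kept their sign in all 384 recomputed values, and 338 of these were still at 0.3 or more. No paired analysis was possible because each region had 1 library.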

Other observations

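A further 56 ventral barcodes with at least 500 genes had under 0.5% mitochondrial UMIs and were left out by the rule. The 56 had a median Sbp and Spink1 share of 48.1% and a median of 9336 UMIs, against 27418 in the members, and 53 of them met the limits on Sbp, Spink1 and Msmb. Of the 89 Msmb-rich barcodes, 43 also had more than 5% of their UMIs from Sbp and Spink1, and the highest Msmb share of a member was 0.863% beside a lowest of 1.08% among the Msmb-rich barcodes.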
